A study of Rattus norvegicus with 9 samples.

Results

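The genes described here are the chromatin remodelling and histone modifying genes of the rat medial prefrontal cortex. They were taken by a rule on gene names, which was set with earlier results of these data known. It covers protein-coding genes whose symbol starts with Kmt, Kdm, Setd, Smarc, Arid or Hdac, or with Chd followed by a number. The rule took 81 of the 37991 genes in the deposited count table, of which 22640 are protein-coding. RNA sequencing was done on medial prefrontal cortex of Wistar Kyoto rats, an inbred strain studied for its depression-like behaviour, in 3 groups of 3 libraries, all collected on day 15. Control rats were untreated. K4 rats were given K4, a compound known here only by its code, into a vein through a cannula for 7 days. Ketamine rats were given ketamine, an anaesthetic and antidepressant that blocks NMDA receptors, under the skin for 7 days. Both agents were then withdrawn for 7 days before collection. The labels give no dose, vehicle, sex or age, and they describe no cannula or injection in Control, so agent and route cannot be told apart. Whether each library is its own animal is not stated, so the p-values measure spread between libraries, which may be technical.

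DNA in the nucleus is wound around histone proteins, and chemical marks on the histone tails help set which genes are read. Methyltransferases of the KMT and SETD families add methyl groups to lysines such as H3K4, H3K9 and H3K36, and demethylases of the KDM family remove them. Histone deacetylases, the HDAC family, remove acetyl groups, most often as part of corepressor complexes. The SWI/SNF, ISWI and CHD remodellers use ATP to slide or evict nucleosomes, and several ARID proteins are the DNA-binding subunits of SWI/SNF. In the brain these proteins are known for their part in neuronal differentiation and in gene expression that follows neuronal activity, and mutations in many of them cause neurodevelopmental disorders. Many of their transcripts are long, and transcript length is therefore given beside the results.

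Library totals were 40863756 to 42731004 counts in Control, 28495399 to 32735785 in K4 and 27122207 to 33837450 in Ketamine. The dependence of counts on transcript length was not the same in all libraries: per doubling of length, log2 CPM (counts scaled to library size) relative to the mean of all libraries changed by 0.043 to 0.07 in Control, by −0.02 to 0.002 in K4 and by −0.066 to −0.018 in Ketamine. These ranges do not overlap between Control and either treated group, so length and group cannot be told apart. The 13 mitochondrially encoded protein genes took 11.6% to 19% of counts in Control, 10.4% to 11.4% in K4 and 10.6% to 11.8% in Ketamine. Markers of cortical excitatory neurons were expressed in all groups, with a summed level of 3080 to 3300 CPM over 6 genes in Control, 3150 to 3300 in K4 and 3170 to 3320 in Ketamine. Single neuronal markers differed in Ketamine all the same, in both directions: of the excitatory markers Nrgn rose by 0.46 on the log2 scale and Camk2a and Tbr1 fell by 0.52 and 0.27 (edgeR adjusted p = 0.0011, 0.02 and 0.039), and of 6 interneuron markers Pvalb rose by 0.36 and Gad2 fell by 0.63 (adjusted p = 0.017 and 0.0018). In K4 0 of these 12 were called. Of 9 fits that left out 1 library, Tbr1 kept its Ketamine call in 2. Camk2a and Pvalb kept theirs in 7, and Nrgn and Gad2 in 9. Astrocyte markers summed to 2620 to 4180 CPM over 7 genes in Control, 2230 to 2470 in K4 and 2010 to 2200 in Ketamine, and 2 of 7 were called lower in K4 and 6 of 7 in Ketamine. Lower markers were also called for oligodendrocyte precursors (1 of 5 in K4, 4 of 5 in Ketamine). For microglia these were 1 and 3 of 6, and for endothelial and mural cells 3 and 3 of 7. Over all genes 3.80% were called lower in K4 and 9.75% in Ketamine. Among the 9 fits that left out 1 library, lower calls in K4 were kept in 2 for Aqp4 and P2ry12 and 3 for Flt1. They were kept in 6 for Rgs5, 7 for Slc1a2 and Abcb1a and 9 for Sox6. In Ketamine the lower calls of these cell types were kept in 2 (Aldh1l1) to 9 of the fits. Among markers of striatal neurons 2 of 5 were called higher in K4 and 1 of 5 in Ketamine. Over all genes 2.27% and 6.95% were called higher. Of the striatal calls, Rgs9 was kept in 2 of the 9 fits in K4, and Ppp1r1b in 6 there and in 4 in Ketamine. With length entered as an offset in the fit, as described further on, lower calls in K4 and Ketamine were 1 and 2 for astrocytes. They were 0 and 2 for oligodendrocyte precursors, 1 and 2 for microglia and 2 and 3 for endothelial and mural cells. The higher calls of striatal markers were then 1 and 0, and of the neuronal calls that on Pvalb was lost. With the offset 1.18% and 4.37% of all genes were called lower in K4 and Ketamine, and 1.20% and 3.23% higher. The 5 markers of choroid plexus and ependyma summed to 3.09 to 5.1 CPM in Control, 3.27 to 7.04 in K4 and 2.92 to 6.05 in Ketamine, with Folr1 at 0 in every library and 0 called. Meningeal markers summed to 67 to 109 CPM in Control, 49.6 to 194 in K4 and 118 to 176 in Ketamine. Blood cell markers summed to 112 to 210, 127 to 226 and 87.7 to 106. Ketamine lay outside the Control range in both lists, though 0 of their genes were called. Of 7 oligodendrocyte markers, 1 was called higher in K4 and 0 in Ketamine, and 0 in either with the offset. That K4 call, on Cldn11, was kept in 4 of the 9 fits that left out 1 library. The part of these shifts in the results on chromatin genes was not tested. In bulk tissue, fewer cells of a type and less RNA per cell cannot be told apart.

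Levels of the chromatin genes in untreated cortex are compared on the per-length scale of FPKM (fragments scaled to library size and transcript length). In Control, 33 members had a mean of at least 10 FPKM, 43 lay between 1 and 10, and 5 were under 1, with a median of 8.28. The highest was Chd3, an ATPase of the NuRD repressor complex, at 102, 119 and 101 FPKM in the Control libraries, at 98.6, 96.5 and 88 in K4 and at 89.1, 80.4 and 85.5 in Ketamine. Next came Smarcc2, a core SWI/SNF scaffold subunit, at 65.1 ± 1.51 FPKM in Control (SD, n = 3) and Hdac11, the class IV deacetylase, at 50.6 ± 4.48. They were followed by Chd5, a neuronal NuRD ATPase, at 45.6 ± 2.94 and Setd3, an actin histidine methyltransferase with a SET domain, at 45.2 ± 1.00, which did not differ from each other beyond their spread. In the Ketamine libraries Hdac11 stood at 67.5 ± 4.53 FPKM and Smarcc2 at 59.9 ± 1.12, the reverse of their order in Control. The lowest members were Arid3c at 0.115 FPKM, Kdm4d at 0.328 and Kdm4dl2 at 0.0431 in Control, and Hdac1l and Smarce1l, with 6 and 2 counts over all 9 libraries. These last 2 were the only members that did not pass the filter on low counts, so 79 members were tested among 18047 genes. Reads of related genes may be shared where their sequences are alike, so values of Hdac1, Smarce1, Kdm4d, Kdm4dl2, Kdm5c and Kdm5d are uncertain, as are those of members with an overlapping or antisense gene.

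**Figure D1:**
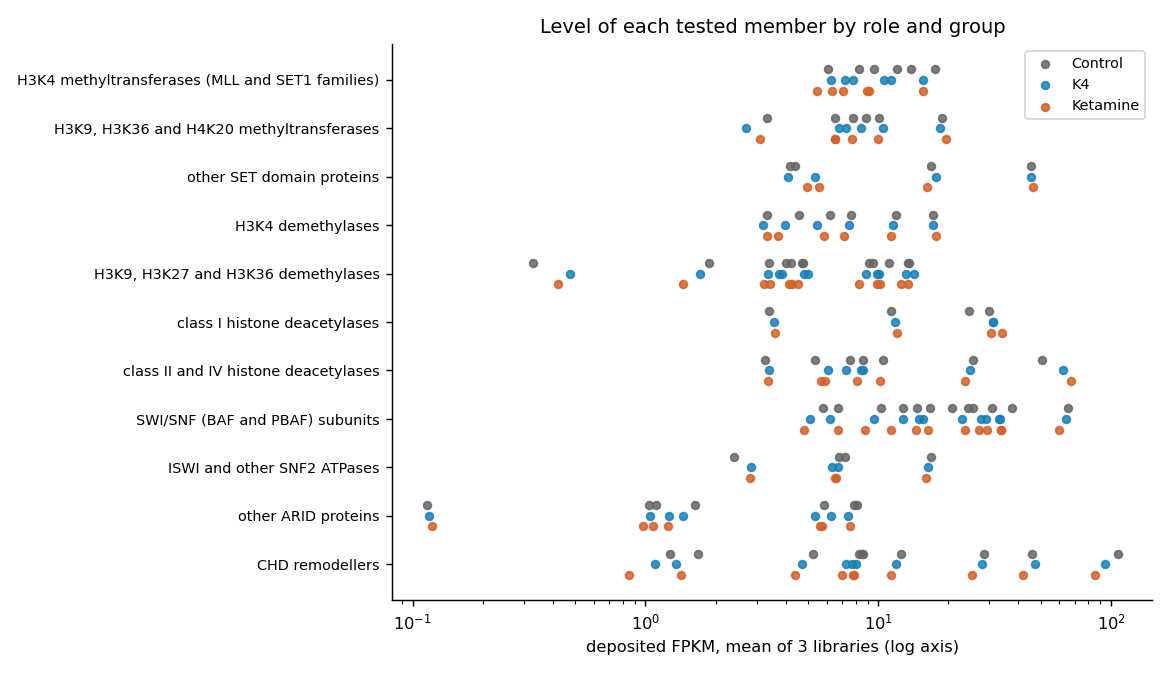
Mean deposited FPKM of each tested member with a named role (log axis), with 1 point for each gene and group (n = 3 libraries per group). Kdm4dl2, tested but in no named role, is not drawn. Chd3 is the highest member in all groups, and the summed FPKM of the members lies between 1004 and 1096 in every library.

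Before transcript length was taken into account, the median chromatin gene stood lower by a small amount in every treated library than in untreated cortex. Relative to the Control mean, the median member lay at −0.005, 0.003 and −0.014 on the log2 CPM scale in the Control libraries, at −0.072, −0.111 and −0.105 in K4 and at −0.105, −0.165 and −0.143 in Ketamine. Over all genes tested the same median lay between −0.011 and 0.003 in every library. The 6 treated libraries were therefore all below the 3 Control libraries in the median member, while the members' share of all counts overlapped, at 0.63% to 0.663% in Control, 0.631% to 0.657% in K4 and 0.602% to 0.631% in Ketamine. The trend of counts over length in each library, relative to the mean of all libraries, shifted in the same order. For the median member it lay at 0.06 to 0.074 in Control, −0.015 to 0 in K4 and −0.066 to −0.024 in Ketamine.

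In K4 against Control, 8 of 79 members fell and 2 rose (edgeR quasi-likelihood test, Benjamini-Hochberg adjusted p under 0.05 over all genes). That is 10.1% lower and 2.53% higher, where 3.80% of all genes were called lower and 2.27% higher. The members' median log2 fold change was −0.10, against 0 over all genes, and 58 of 79 were negative. In 28 members every K4 library was below every Control library and in 6 every one was above, where 14.2% of all genes were in the first position and 13.3% in the second. Members called lower were Arid5b, Kdm7a, Kmt2c, Hdac9, Chd9, Kmt2e, Hdac4 and Arid2, and those called higher were Hdac3 and Hdac11. The count depended on single libraries: lower calls numbered 1, 9 and 4 without Control replicates 1, 2 and 3, 1, 1 and 0 without K4 replicates 1, 2 and 3, and 11, 5 and 4 without Ketamine replicates 1, 2 and 3. DESeq2 called 17 lower, and limma on log2(FPKM + 0.1) called 0 lower and 2 higher.

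Ketamine against Control gave 24 members that fell and 2 that rose of the 79. That is 30.4% lower and 2.53% higher, where 9.75% of all genes were called lower and 6.95% higher. The median log2 fold change of the members was −0.14, against 0 over all genes, and 60 of 79 were negative. In 41 members all Ketamine libraries lay below all Control libraries and in 5 all lay above, where 18.1% and 16.9% of all genes did so. Of the 24, 9 were called in each of the 9 fits that left out 1 library, among them Kmt2a, Kmt2c, Kmt2d, Hdac4 and Arid5b. Lower calls numbered 13 without Control replicate 1, 10 without Ketamine replicate 2, 9 without Ketamine replicate 3 and 22 to 25 without any of the other libraries. On deposited FPKM, limma on log2(FPKM + 0.1) called 9 members lower and 3 higher.

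Transcript length went with most of these lower calls. Length was implied from the ratio of deposited counts to FPKM, so it is that of the gene model used and may differ from the transcript in the tissue. The tested members had a median of 5.32 kb, against 2.93 kb over all genes. Of the 79, and with all genes split by length into 10 classes of equal size, 25 lay in the longest class (6.93 kb and up) and 0 in the 2 shortest. In the longest class, 6 of 25 members fell in K4, beside 16.6% of all genes there, and the median log2 fold change was −0.21 for members and −0.15 for all genes. In Ketamine 14 of the 25 fell, beside 37% of all genes of that length, with medians of −0.28 and −0.23. Set against the median of all genes in their own length class, 45 of 79 members were lower in K4 and 43 of 79 in Ketamine, and the median member differed from it by −0.03 and −0.02.

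**Figure D2:**
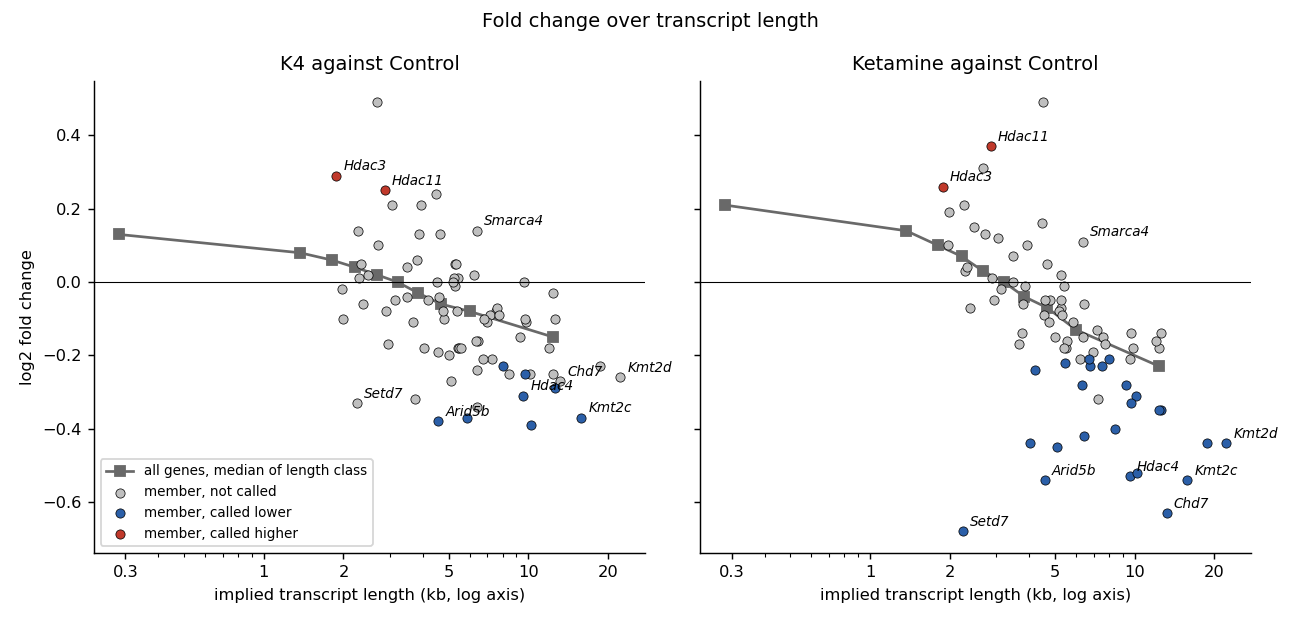
Log2 fold change of each tested member against implied transcript length (kb, log axis) in K4 and in Ketamine against Control, with squares for the median of all genes in each of 10 length classes. The grey line falls from 0.13 to −0.15 in K4 and from 0.21 to −0.23 in Ketamine, and most members called lower lie at its long end.

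When the dependence on length in each library was entered as an offset in the fit, the members' median log2 fold change was 0.00 in both comparisons. In K4, 1 member was then lower (Arid5b) and 2 higher (Hdac3, Hdac11), where 1.18% of all genes were called lower and 1.20% higher. In Ketamine, 2 were lower (Arid5b, Setd7) and 2 higher (Hdac11, Smarca4), where 4.37% of all genes were called lower and 3.23% higher. The offset removes any change that follows length in a library, whatever its origin, so a shared change of long chromatin transcripts and a technical dependence on length cannot be told apart here.

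**Figure D3:**
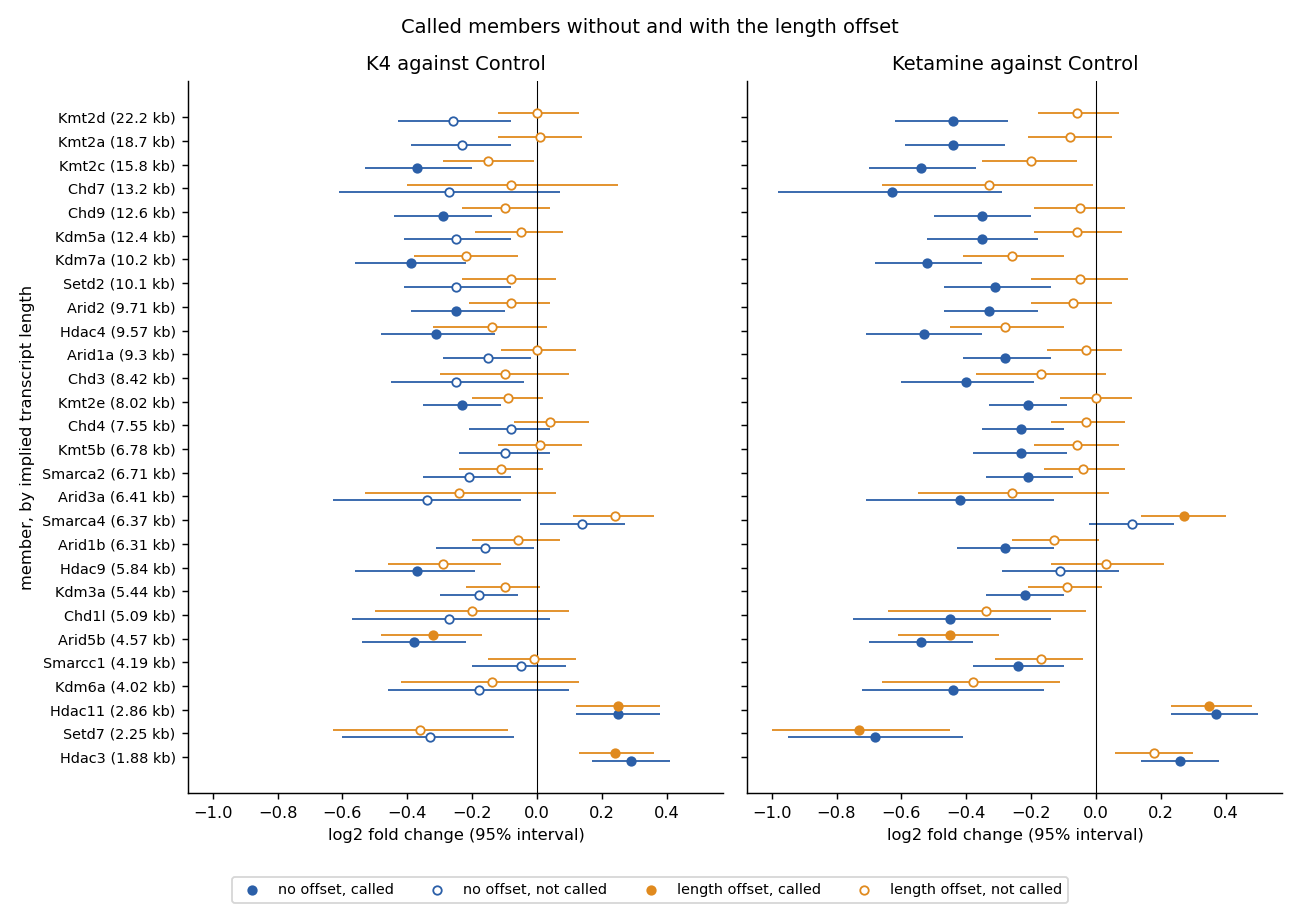
Log2 fold change with its 95% interval for each member called with or without the length offset in either comparison, without it (blue) and with it (orange), from the longest transcript (top) to the shortest; filled points were called. Kmt2d moves from −0.44 to −0.06 in Ketamine, while Arid5b moves from −0.54 to −0.45 and Hdac11 from 0.37 to 0.35.

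Arid5b, a DNA-binding cofactor of the histone demethylase PHF2, was the member with the smallest adjusted p in Ketamine and the member called lower in both comparisons with and without the offset. It was counted at 35.9, 34.9 and 38.8 CPM in the Control libraries, at 29.9, 27 and 27.5 in K4 and at 26.6, 25.1 and 23.8 in Ketamine. All 6 treated libraries were below all Control libraries. Its log2 fold change in Ketamine was −0.54 (SE 0.074, edgeR adjusted p = 8.7e-04) and −0.45 with the offset (adjusted p = 0.0042), called in each leave-one-out fit of either kind. In K4 it was −0.38 (SE 0.074, edgeR adjusted p = 0.015) and −0.32 with the offset (adjusted p = 0.039). Without the offset that call was lost without Control replicate 1, K4 replicate 2 or K4 replicate 3 (adjusted p 0.058 to 0.065), and with it without any library but Control replicate 2 (0.052 to 0.14).

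Hdac11, which removes fatty acyl as well as acetyl groups, rose in both treated groups. Control libraries held 149, 141 and 152 CPM, K4 libraries 172, 176 and 179, and Ketamine libraries 176, 199 and 196. The groups did not overlap with Control. Its log2 fold change was 0.37 in Ketamine (SE 0.061, edgeR adjusted p = 0.0022) and 0.35 with the offset (adjusted p = 0.0051), called in each leave-one-out fit. In K4 it was 0.25 (SE 0.061, edgeR adjusted p = 0.032) and 0.25 with the offset (adjusted p = 0.047). The K4 call was lost without Control replicate 1, any K4 replicate or Ketamine replicate 3, with adjusted p from 0.05 to 0.11. With the offset it was lost without Control replicate 1, any K4 replicate, Ketamine replicate 2 or Ketamine replicate 3 (0.072 to 0.15).

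Hdac3, the catalytic subunit of the NCoR and SMRT corepressor complexes, also rose in both. It stood at 47.4, 45.9 and 47.8 CPM in Control, at 58.6, 56.2 and 58.1 in K4 and at 54.3, 57.4 and 57.5 in Ketamine. Every treated library was above every Control library. In K4 the log2 fold change was 0.29 (SE 0.056, edgeR adjusted p = 0.013) and 0.24 with the offset (adjusted p = 0.038). Leaving out Control replicate 1, K4 replicate 1 or K4 replicate 3 ended the K4 call (adjusted p 0.05, 0.058 and 0.057), and with the offset it was kept only without Control replicate 2 or 3. In Ketamine it was 0.26 (SE 0.056, edgeR adjusted p = 0.0077) and, with the offset, 0.18 (adjusted p = 0.065). Hdac3 is among the shortest members, at an implied length of 1.88 kb.

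Setd7, which adds a methyl group to H3K4 and to many non-histone proteins, had the largest fall among members called in Ketamine. It stood at 28.3, 33.7 and 33.1 CPM in Control, at 27.3, 28 and 20 in K4 and at 21.6, 20.1 and 17.7 in Ketamine. The Ketamine libraries lay well below Control, and the K4 libraries lay just below it, with K4 replicate 3 at the level of Ketamine. Ketamine stood at 0.624 times Control, a log2 fold change of −0.68 (SE 0.13, edgeR adjusted p = 0.0039) and −0.73 with the offset (adjusted p = 0.0061). In K4 it was −0.33 (95% interval −0.60 to −0.07, edgeR adjusted p = 0.13). Its implied length of 2.25 kb is below that of the median gene. The values with the offset rest on this length, and whether the transcript in this tissue is longer was not tested.

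Smarca4 (BRG1), an ATPase of SWI/SNF, was called only with the offset. It stood at 157, 149 and 167 CPM in Control, at 176, 179 and 165 in K4 and at 174, 170 and 168 in Ketamine. The Ketamine libraries were above Control by a narrow margin, and the K4 libraries overlapped with it. In Ketamine the log2 fold change was 0.11 (SE 0.060, edgeR adjusted p = 0.23) and 0.27 with the offset (adjusted p = 0.017), a call lost without Control replicate 1, Ketamine replicate 2 or Ketamine replicate 3 (adjusted p 0.062, 0.086 and 0.064). In K4 it was 0.14 (edgeR adjusted p = 0.19) and 0.24 with the offset (adjusted p = 0.056).

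**Figure D4:**
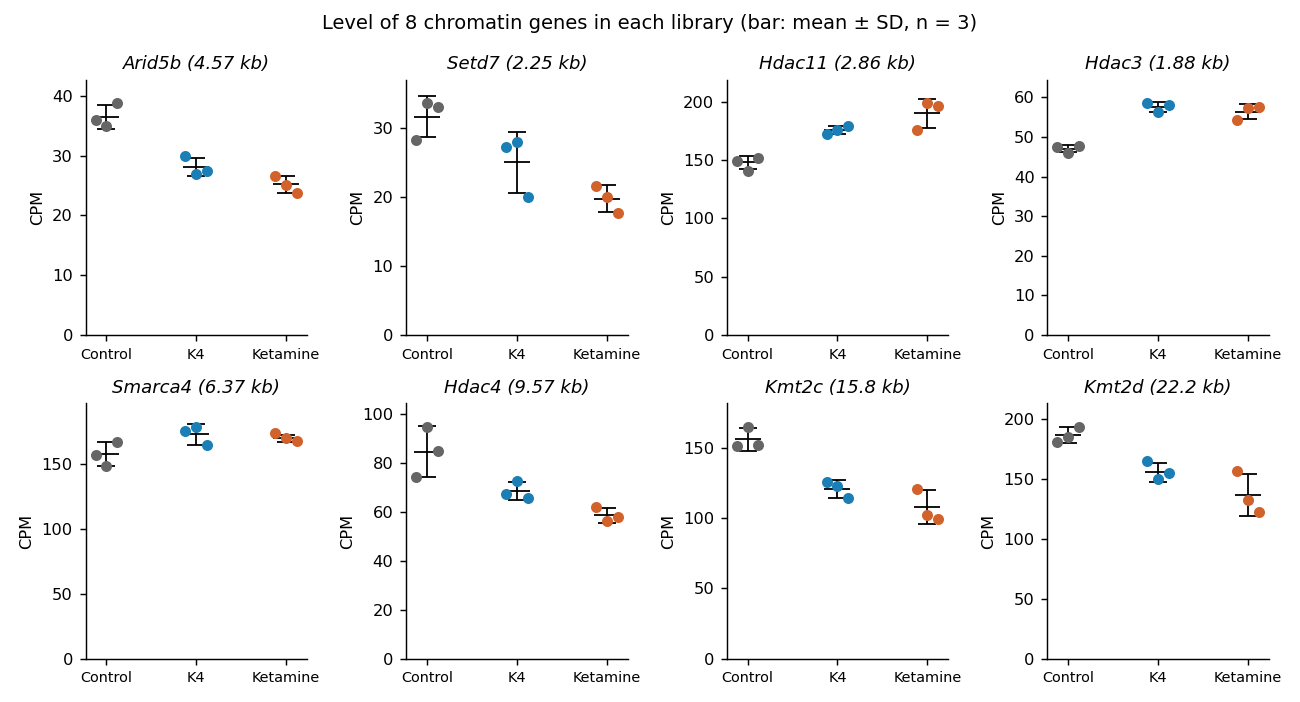
CPM of 8 members in each library (points) with the mean and SD of each group (bars, n = 3), the implied transcript length in each title and axes from 0. Arid5b and Hdac11 separate both treated groups from Control, and the long transcripts Kmt2c and Kmt2d are lowest in Ketamine.

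The promoters of the members called with the offset are shown to let a reader compare their sequence, as far as the RefSeq promoter table (build GRCr8) holds them. Each window is the 250 bases before the annotated start, 5′ to 3′ on the gene's strand, and capitals mark matches to the motifs searched. Arid5b lies at chr20:20306464-20306713 (plus strand), Hdac3 at chr18:30041026-30041275 (minus strand) and Smarca4 at chr8:28443569-28443818 (plus strand).
Arid5b: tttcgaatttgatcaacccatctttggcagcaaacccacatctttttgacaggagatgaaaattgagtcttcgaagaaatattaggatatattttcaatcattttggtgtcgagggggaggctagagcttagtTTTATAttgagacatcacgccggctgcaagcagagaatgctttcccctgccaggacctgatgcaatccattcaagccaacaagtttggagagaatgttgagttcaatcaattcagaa
Hdac3: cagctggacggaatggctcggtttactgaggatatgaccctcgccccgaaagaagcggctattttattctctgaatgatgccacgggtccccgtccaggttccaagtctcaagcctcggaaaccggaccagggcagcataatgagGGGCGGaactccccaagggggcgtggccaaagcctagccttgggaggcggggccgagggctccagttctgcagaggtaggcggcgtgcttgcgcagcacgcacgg
Smarca4: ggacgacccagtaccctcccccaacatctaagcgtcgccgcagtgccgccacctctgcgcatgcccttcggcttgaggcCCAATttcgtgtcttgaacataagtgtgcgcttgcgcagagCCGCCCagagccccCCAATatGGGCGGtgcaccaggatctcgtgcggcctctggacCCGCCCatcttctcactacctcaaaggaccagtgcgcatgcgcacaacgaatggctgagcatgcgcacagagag
The Arid5b window has 41.2% GC, 5 CpG and 1 TATA box in reverse, the Hdac3 window 62% GC, 18 CpG and 1 GC box, and the Smarca4 window 62% GC, 19 CpG, 3 GC boxes and 2 CCAAT boxes. Of the members, 67 had an entry, with 97 windows, and these had a median of 60% GC and 16 CpG, against 51.2% and 5 over all 33469 windows. All windows were those of 27457 genes, with no filter on gene type or expression, while members are protein-coding by rule. The part of this in the differences was not tested. Each motif was searched on both strands, and none of the 6 contains another. The GC box, searched as GGGCGG, was in 55.7% of member windows and 30.5% of all windows. The CCAAT box, whose name gives its letters, was in 34% of both. The TATA box, searched as TATAAA, was in 7.22% and 12.9%. The E-box, searched as CACGTG, was in 6.19% and 5.59%, and the ETS motif, searched as CCGGAAG, in 8.25% and 7.27%. The cAMP response element, searched as TGACGTCA, was in 0% and 1.59%.

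The H3K4 methyltransferases among the members, Kmt2a to Kmt2e and Setd7, held the longest transcripts (median 12.7 kb). They had the highest share of lower calls in Ketamine, 5 of 6, with 2 of 6 in K4. Of all genes 9.75% and 3.80% were lower. Setd1a and Setd1b, listed for this role, were not among the members, so the share does not cover them. Of the 6, 5 lay in the longest length class, in which 37% of all genes fell in Ketamine and 16.6% in K4, and with the offset 1 of 6 was lower in Ketamine (Setd7) and 0 in K4. Kmt2c, which with Kmt2d places the H3K4 mark of enhancers, was at 151, 165 and 152 CPM in Control, at 126, 123 and 114 in K4 and at 121, 102 and 99.1 in Ketamine. Neither treated group overlapped with Control. It fell by 0.37 on the log2 scale in K4 (SE 0.077, edgeR adjusted p = 0.019) and by 0.54 in Ketamine (edgeR adjusted p = 0.0011), and with the offset stood at −0.15 and −0.20 (adjusted p = 0.24 and 0.082). Its K4 call was lost without Control replicate 1 or any K4 replicate (adjusted p 0.057 to 0.089). Kmt2a (MLL1), known for its part in memory in forebrain neurons, was at 213, 231 and 240 CPM in Control, at 190, 195 and 197 in K4 and at 187, 157 and 161 in Ketamine. Ketamine replicate 1 was near the K4 libraries and the other 2 were lower. In Ketamine it fell by 0.44 on the log2 scale (edgeR adjusted p = 0.0020), with −0.08 under the offset (adjusted p = 0.48), and in K4 it stood at −0.23 (adjusted p = 0.071).

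Kmt2d, at 22.2 kb the longest member, was at 181, 185 and 194 CPM in Control, at 165, 150 and 155 in K4 and at 157, 133 and 123 in Ketamine. It too was below Control in every treated library, and its log2 fold change in Ketamine was −0.44 (edgeR adjusted p = 0.0034) and −0.06 with the offset. Kmt2e (MLL5), a relative with little known enzymatic activity, fell by 0.23 in K4 (edgeR adjusted p = 0.034, kept only without Control replicate 2 or Ketamine replicate 1, otherwise 0.053 to 0.15) and by 0.21 in Ketamine (adjusted p = 0.021; 0.086 to 0.094 without Control replicate 1, Ketamine replicate 2 or Ketamine replicate 3). Its level was 143 ± 2.80 CPM in Control, 122 ± 4.40 in K4 and 123 ± 5.14 in Ketamine (SD, n = 3), and with the offset it stood at −0.09 and 0. Kmt2b was not called in either, at 0 in K4 and −0.21 in Ketamine (edgeR adjusted p = 0.98 and 0.071).

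Among methyltransferases for H3K9, H3K36 and H4K20, 0 of 6 were called in K4 and 2 of 6 fell in Ketamine, where 3.80% and 9.75% of all genes were called lower. With the offset 0 were called in either. Setd2, the enzyme of H3K36 trimethylation along transcribed genes, was at 85.3, 79.0 and 74.1 CPM in Control, at 66.4, 68.4 and 66.0 in K4 and at 72.0, 58.8 and 62.0 in Ketamine. Every treated library was below Control, Ketamine replicate 1 only just. It fell by 0.31 on the log2 scale in Ketamine (edgeR adjusted p = 0.017; −0.05 and 0.70 with the offset) and stood at −0.25 in K4 (adjusted p = 0.075). Kmt5b, an H4K20 methyltransferase, fell by 0.23 in Ketamine (edgeR adjusted p = 0.029; −0.06 and 0.60 with the offset), from 60.7 ± 2.45 to 51.6 ± 2.89 CPM. Both Ketamine calls were lost without Control replicate 1, Ketamine replicate 2 or Ketamine replicate 3 (adjusted p 0.077 to 0.13). Setdb1, the H3K9 methyltransferase of silenced repeats, stood at 53.5 ± 1.70, 53.5 ± 3.63 and 50.5 ± 0.876 CPM in Control, K4 and Ketamine, log2 fold changes of 0.00 (95% interval −0.14 to 0.14) and −0.08 (−0.22 to 0.05). Setdb2, with the smallest p of the group in K4, stood at −0.32 there (edgeR adjusted p = 0.055). Of the other SET domain proteins 0 of 4 were called in either comparison: Setd4 was at 0.24 in K4 (edgeR adjusted p = 0.073) and Setd5, tied to intellectual disability, at −0.14 in Ketamine (adjusted p = 0.13).

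Of the histone demethylases for H3K9, H3K27 and H3K36, 1 of 12 fell in K4 and 3 of 12 in Ketamine, and 0 in either with the offset. Over all genes without the offset, 3.80% and 9.75% were called lower. Kdm7a, which acts on H3K9 and H3K27, was at 47.1, 50.9 and 50.5 CPM in Control, at 35.9, 41.4 and 36.1 in K4 and at 37.7, 33.7 and 32.4 in Ketamine. The lowest Control library was above all 6 treated libraries. It fell by 0.39 in K4 (SE 0.077, edgeR adjusted p = 0.015) and by 0.52 in Ketamine (SE 0.078, adjusted p = 0.0013), and with the offset stood at −0.22 and −0.26 (adjusted p = 0.12 and 0.052). The K4 call was lost without Control replicate 1, K4 replicate 1 or K4 replicate 3 (adjusted p 0.05, 0.069 and 0.074). Kdm3a, an H3K9 demethylase, went from 61.2 ± 1.76 to 52.6 ± 1.08 CPM in Ketamine (−0.22, edgeR adjusted p = 0.017; −0.09 and 0.32 with the offset), and Kdm6a, the X-linked H3K27 demethylase, from 7.79 ± 0.347 to 5.76 ± 0.401 (−0.44, adjusted p = 0.035; −0.38 and 0.088 with the offset). Both lost that call without Control replicate 1, Ketamine replicate 2 or Ketamine replicate 3 (adjusted p 0.05 to 0.13), Kdm6a also without Control replicate 2 or Ketamine replicate 1 (0.06 and 0.056). Kdm6b, the activity-induced H3K27 demethylase, stood at 0.02 in K4 and −0.21 in Ketamine (edgeR adjusted p = 0.93 and 0.24).

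Of the H3K4 demethylases, 0 of 6 were called in K4 and 1 of 6 fell in Ketamine, where 3.80% and 9.75% of all genes were called lower. With the offset 0 were called in either. Kdm5a was at 57.8, 57.8 and 57.5 CPM in Control, at 50.5, 47.5 and 47.9 in K4 and at 51.9, 42.2 and 41.8 in Ketamine. The Control libraries were close to each other, and Ketamine replicate 1 lay nearer to K4 than to the other Ketamine libraries. It fell by 0.35 in Ketamine (SE 0.078, edgeR adjusted p = 0.0099; 0.061 without Ketamine replicate 2 and 0.055 without replicate 3) and stood at −0.06 with the offset. Kdm1a (LSD1), a subunit of the CoREST repressor, was at 60.6 ± 4.46, 58.8 ± 2.71 and 60.5 ± 5.53 CPM, and its intervals on the log2 scale were −0.21 to 0.12 in K4 and −0.17 to 0.16 in Ketamine. Kdm5c stood at −0.07 and −0.15 (edgeR adjusted p = 0.59 and 0.17), and Kdm5d, with the smallest p of the group in K4, at −0.24 there (adjusted p = 0.061).

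The deacetylases moved in both directions. Of class I, Hdac3 rose as described and 0 of the other 3 were called. Hdac1 was at 26.4 ± 1.07, 26.5 ± 1.1 and 26.9 ± 2.02 CPM in Control, K4 and Ketamine, and Hdac2 at 75.2 ± 7.28, 76.0 ± 3.86 and 83.2 ± 4.43. The 95% intervals of the log2 fold change were −0.16 to 0.17 and −0.15 to 0.18 in K4 and −0.14 to 0.19 and −0.02 to 0.31 in Ketamine. Class II and IV had 2 of 7 lower and 1 higher in K4, where 3.80% and 2.27% of all genes were so called. In Ketamine 1 of the 7 was lower and 1 higher, where 9.75% and 6.95% of all genes were. With the offset Hdac11 alone of these 7 was called, higher in both.

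Hdac4, a class II deacetylase that shuttles between cytoplasm and nucleus with neuronal activity, was at 74.1, 94.8 and 85 CPM in Control, at 67.1, 72.5 and 65.7 in K4 and at 61.9, 56.1 and 57.9 in Ketamine. Control was the most spread group, and its lowest library was just above the highest K4 library. It fell by 0.53 in Ketamine (SE 0.083, edgeR adjusted p = 0.0016; −0.28 and 0.054 with the offset) and by 0.31 in K4 (SE 0.083, adjusted p = 0.046; −0.14 and 0.35 with the offset). The K4 call was kept only without Control replicate 1 and otherwise lost (adjusted p 0.058 to 0.16). Hdac9, of the same class, was at 68.6, 54.0 and 66.2 CPM in Control, at 51.0, 47.5 and 47.2 in K4 and at 60.9, 55.1 and 59.0 in Ketamine. K4 lay below both other groups, and Ketamine overlapped with Control. It fell by 0.37 in K4 (SE 0.084, edgeR adjusted p = 0.024; −0.29 and 0.078 with the offset) and stood at −0.11 in Ketamine (adjusted p = 0.40). Without Control replicate 1, Control replicate 3 or any K4 replicate the K4 call was lost (adjusted p 0.055 to 0.13). Hdac5 stood at −0.11 in K4 and −0.17 in Ketamine (edgeR adjusted p = 0.49 and 0.20).

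SWI/SNF subunits fell in 1 of 12 cases in K4 and 5 of 12 in Ketamine, where 3.80% and 9.75% of all genes were called lower. With the offset 0 fell, beside 1.18% and 4.37% of all genes. Arid2, the DNA-binding subunit of the PBAF form, was at 55.9, 57.2 and 58.8 CPM in Control, at 48.8, 45.1 and 51.0 in K4 and at 49.2, 43.7 and 44.2 in Ketamine. Both treated groups lay below Control. It fell by 0.25 in K4 (edgeR adjusted p = 0.048, kept only without Control replicate 2 or Ketamine replicate 1, otherwise 0.065 to 0.16) and by 0.33 in Ketamine (adjusted p = 0.0065), with −0.08 and −0.07 under the offset. Arid1a and Arid1b, alternative subunits of the BAF form, fell in Ketamine by 0.28 each (edgeR adjusted p = 0.011 and 0.015), and with the offset stood at −0.03 and −0.13 (adjusted p = 0.77 and 0.24). Arid1a went from 159 ± 3.62 to 131 ± 10.9 CPM and Arid1b from 66.2 ± 2.28 to 54.4 ± 5.18. Smarca2 (BRM), the alternative ATPase to Smarca4, was at 257, 249 and 265 CPM in Control, at 239, 207 and 218 in K4 and at 224, 217 and 226 in Ketamine, and fell by 0.21 in Ketamine (edgeR adjusted p = 0.036; −0.04 and 0.77 with the offset). The call on Smarca2 was kept only without Control replicate 2, K4 replicate 1 or K4 replicate 2 (adjusted p otherwise 0.057 to 0.14). Smarcc1, a scaffold subunit, fell by 0.24 in Ketamine (edgeR adjusted p = 0.026; −0.17 and 0.11 with the offset) from 54.8 ± 2.83 to 46.4 ± 2.95 CPM, and stood at 52.7 ± 1.73 in K4. Leaving out Ketamine replicate 2 or Ketamine replicate 3 ended the calls on Arid1a, Arid1b and Smarcc1 (adjusted p 0.057 to 0.11), as did leaving out Control replicate 1 for Arid1b and Smarcc1 (0.066 and 0.067) and Control replicate 2 for Smarcc1 (0.056). Smarcb1, the core subunit lost in rhabdoid tumours, stood at 0.14 in K4 and 0.21 in Ketamine (edgeR adjusted p = 0.27 and 0.066).

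All 10 CHD remodellers had negative log2 fold changes in both comparisons, with medians of −0.19 in K4 and −0.27 in Ketamine against −0.03 and −0.04 with the offset. In K4 1 fell and in Ketamine 5, where 3.80% and 9.75% of all genes were called lower, and 0 in either with the offset. Of the 10, 9 lay in the longest length class. In that class 16.6% of all genes fell in K4 and 37% in Ketamine, with medians of −0.15 and −0.23. Chd9 was at 103, 119 and 109 CPM in Control, at 93.5, 85.3 and 93.2 in K4 and at 93.3, 83.8 and 84.3 in Ketamine. All treated libraries were below Control. It fell by 0.29 in K4 (SE 0.070, edgeR adjusted p = 0.032; 0.05 to 0.12 without Control replicate 1, any K4 replicate or Ketamine replicate 3) and by 0.35 in Ketamine (SE 0.070, adjusted p = 0.0057), and with the offset stood at −0.10 and −0.05 (adjusted p = 0.43 and 0.69). Chd3 was at 864, 1080 and 829 CPM in Control, at 802, 820 and 721 in K4 and at 739, 665 and 705 in Ketamine. Control replicate 2 stood above the rest, and Ketamine lay below all other libraries but K4 replicate 3. In Ketamine it fell by 0.40 (SE 0.095, edgeR adjusted p = 0.014; 0.081 without Ketamine replicate 2 and 0.055 without Ketamine replicate 3), and Chd4, the main ATPase of NuRD, by 0.23 (adjusted p = 0.017; 0.069 without Control replicate 1, 0.081 without Ketamine replicate 2 or 3). With the offset Chd3 stood at −0.17 and Chd4 at −0.03 (adjusted p = 0.29 and 0.81).

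Chd7, the gene of CHARGE syndrome, was at 16.1, 21.0 and 14.4 CPM in Control, at 16.5, 12.7 and 13.5 in K4 and at 12.6, 9.05 and 11.5 in Ketamine. Only the Ketamine libraries were all below Control. Its fall in Ketamine was the largest among the CHD genes, by 0.63 on the log2 scale (SE 0.16, edgeR adjusted p = 0.018; 0.086 without Ketamine replicate 2 and 0.055 without Ketamine replicate 3), and −0.33 with the offset (adjusted p = 0.20). Chd1l, a poly(ADP-ribose)-dependent remodeller, fell by 0.45 in Ketamine from 8.57 ± 0.378 to 6.29 ± 0.450 CPM (edgeR adjusted p = 0.047, lost without any 1 of the Control or Ketamine libraries, 0.066 to 0.14; −0.34 and 0.17 with the offset). Chd8, the autism gene, was at 124 ± 8.92, 115 ± 3.78 and 109 ± 6.97 CPM and not called, at −0.11 (95% interval −0.25 to 0.04) in K4 and −0.18 (−0.33 to −0.03) in Ketamine. Among the other ARID proteins, 1 of 7 fell in K4 and 2 in Ketamine, where 3.80% and 9.75% of all genes were called lower. Arid5b fell in both, and Arid3a fell from 10.9 ± 0.281 to 8.18 ± 1.41 CPM in Ketamine (−0.42, edgeR adjusted p = 0.048). The call on Arid3a was kept only without K4 replicate 2 or Ketamine replicate 2 (adjusted p otherwise 0.055 to 0.19). With the offset Arid3a stood at −0.26 (adjusted p = 0.28). Of the ISWI and other SNF2 ATPases, 0 of 4 were called; Smarca5, the ISWI ATPase, stood at −0.08 in K4 and −0.11 in Ketamine, and Smarcad1 at −0.18 in both (edgeR adjusted p = 0.14 and 0.094).

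The comparisons with Control share the Control libraries, so K4 was also set against Ketamine directly. No member and no gene was called (0 of 18047, 0%), with 11 members and 1648 genes at an unadjusted p under 0.05, and DESeq2 called 0 members and 66 genes. The smallest adjusted p of a member was 0.38. The median member was 0.06 higher in K4 on the log2 scale, 53 of 79 were higher, and with the offset the median was 0.00. Hdac9 was the member with the smallest p: it was lower in K4 by −0.26 (95% interval −0.45 to −0.08, edgeR unadjusted p = 0.008, adjusted p = 0.38), and the 2 groups did not overlap. Kmt2a was higher in K4 by 0.21 (0.05 to 0.36) and Smarcc1 by 0.18 (0.04 to 0.33), both also without overlap. For Setd7 the difference was 0.35 (0.07 to 0.62, edgeR adjusted p = 0.46), for Arid5b 0.16 (0.00 to 0.32, adjusted p = 0.56) and for Chd4 0.14 (0.02 to 0.27, adjusted p = 0.49). Setd6 stood at −0.29 (−0.58 to 0.01) and Kmt5b at 0.14 (−0.01 to 0.28). For Hdac9, called against Control in K4 and not in Ketamine, the difference from Ketamine did not pass the test.

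Other genes of chromatin complexes, taken from lists of 154 genes of which 148 were tested, gave 2 higher and 15 lower in K4, where 2.27% and 3.80% of all genes were called, and 8 higher and 29 lower in Ketamine, where 6.95% and 9.75% were. With the offset these counts were 1 and 0 in K4, beside 1.20% and 1.18% of all genes, and 4 and 4 in Ketamine, beside 3.23% and 4.37%. The medians without it were −0.02 and −0.04, and 0.02 in both with it. Among 12 histone acetyltransferases, which add the marks that HDACs remove, 2 fell in K4 and 5 in Ketamine. Kat6a went from 77.1 ± 8.57 CPM in Control to 58.6 ± 4.48 in K4 and 50.4 ± 7.19 in Ketamine (−0.39 and −0.61, edgeR adjusted p = 0.046 and 0.0030), and kept its Ketamine call with the offset (−0.35, adjusted p = 0.043), as did Ncoa3, a nuclear receptor coactivator (−0.32, adjusted p = 0.038). Of 24 corepressor genes that work with HDACs, 2 fell in K4, and 4 fell and 1 rose in Ketamine. Ncor1, the scaffold of the Hdac3 complex, fell by 0.23 in K4 and by 0.43 in Ketamine (edgeR adjusted p = 0.049 and 0.0013), the reverse direction to Hdac3, and stood at −0.07 and −0.18 with the offset (adjusted p = 0.50 and 0.065). Of 24 polycomb genes 2 fell in each comparison, Pcgf5 by 0.39 and 0.42 (edgeR adjusted p = 0.0096 and 0.0020; −0.28 and −0.24 with the offset, adjusted p = 0.063 and 0.064), and of 7 sirtuins 0 were called.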

How the data were processed

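Reads were processed by the authors. The submitters' processing notes name build rn6 and the tools HISAT2 2.1.0, StringTie 2.1.3b, bcl2fastq 2.20.0 and Trimmomatic, without roles or order. Per the labels, a stranded mRNA kit was used on total RNA. Raw counts for each gene were deposited by the authors; which tool and strand setting made them is not given in the sources used here. FPKM and TPM were deposited too, per the file headers, and the deposited TPM values were not used.

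Counts were tested in R 4.3.3 with edgeR 4.0.16 (TMM, filterByExpr with minimum count 10 and minimum total 15, robust quasi-likelihood F test, all 9 libraries in 3 groups, no covariate), with a call at a Benjamini-Hochberg adjusted p under 0.05 over the 18047 genes tested. The common coefficient of variation between libraries was 10.2%. It is called biological in edgeR, but it may be technical here. SE is the log2 fold change over the root of F, and intervals cover 95%. CPM are scaled by TMM and given as mean ± SD, n = 3. Transcript length is the median over libraries of counts divided by FPKM and library total, where counts reached 10. The length offset is a lowess trend (span 0.3) of log2 CPM minus the gene mean over log2 length, per library. Alternatives were RLE and upper quartile scaling, no filter, DESeq2 1.42.0, limma 3.58.1 on log2(FPKM + 0.1) or log2(FPKM + 1), a replicate block, fits of the pair alone and leave-one-out. The scripts were tested on simulated data.

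The members, role groups and lists were chosen with earlier results of these data known. Named are all called members (up to 30 per comparison), the member with the smallest p in a role group without a call, a fixed set (Hdac1 to Hdac5, Kmt2a, Kdm1a, Kdm5c, Kdm6b, Setdb1, Smarca2, Smarca4, Arid1b, Chd8) and up to 2 called genes per list of other chromatin genes. Members named for their level (Smarcc2, Chd5, Setd3, Arid3c, Kdm4d, Kdm4dl2), Kmt2b, Smarcb1, Smarca5 and the cell type markers were named after their values were seen. 1 gene that this rule takes is not reported here.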

Additional observations from a re-analysis of the deposited data

How the results depend on the processing

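With all libraries kept, RLE and upper quartile scaling, no filter on low counts and the replicate block kept the members' counts within 1.5 times the reported ones. In K4 against Control, members lower numbered 17 with DESeq2, 3 with the 6 libraries of the pair alone, 0 with each of the 3 FPKM fits, and 1 with the length offset in each of its forms (lowess, lowess without the members, straight line, with the block); members higher numbered 1 in the pair alone and with a straight line, and 0 on FPKM with any mean above 0. All genes higher and lower were 731 and 1152 with DESeq2, 144 and 308 in the pair alone, 217 and 213 with the offset (217 and 213 without the members, 151 and 204 with a straight line, 220 and 277 with the replicate block), and lower 208, 215 and 8 on FPKM + 0.1, FPKM + 1 and FPKM with any mean above 0, where 26 were higher. In Ketamine against Control, members lower numbered 2 with the offset (2 without the members, 5 with a straight line, 3 with the replicate block) and 9, 9 and 7 on FPKM. All genes higher and lower were there 583 and 789 with the offset, 582 and 790 without the members, 629 and 749 with a straight line, 547 and 827 with the replicate block, and lower 984, 988 and 654 on FPKM. Over all genes, upper quartile scaling gave 527 higher and 563 lower in K4 and 1587 and 1549 in Ketamine.

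The median log2 fold change of the members was −0.001 in K4 with the offset (−0.001 without the members, −0.025 with a straight line, 0 with the replicate block) and −0.046, −0.04 and −0.03 on FPKM. In Ketamine it was −0.003 (−0.003, 0.004 and −0.003) and −0.098, −0.085 and −0.095. In K4 against Ketamine it was 0.003 (0.004, 0.009 and 0.003). There, all genes higher were 6 with no filter, 56 with DESeq2, 1 with the replicate block with or without the offset, 25 in the pair alone and 1 on each FPKM scale, and all genes lower were 10 with DESeq2 and 2 in the pair alone.

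Leaving out 1 library at a time gave 0 to 3 members higher and 0 to 11 lower in K4 (50 to 754 and 124 to 1007 of all genes, median −0.105 to −0.075), 2 to 3 and 9 to 25 in Ketamine (425 to 1474 and 752 to 1833, −0.152 to −0.117), and 0 in K4 against Ketamine (0 to 27 and 0 of all genes, 0.032 to 0.069). With the offset these were 0 to 3 and 0 to 2 (11 to 626 and 21 to 537, −0.019 to 0.004), 1 to 2 and 2 to 3 (84 to 1016 and 213 to 1092, −0.006 to 0.011), and 0 and 0 to 1 (0 to 14 and 0 to 3, −0.017 to 0.009). For single named genes, 55 calls were lost, 2 of them with a turn of sign, and 1 was gained with the length offset. Kmt2e in Ketamine went to 0 and Phc3 to 0.03 with the offset, with and without the members and with the replicate block. The cause was not tested.

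Replicate numbers of the titles are shared by the groups. Libraries with the same number correlated at 0.0024 to 0.11, and 6 of 9 libraries correlated best with their own number in both other groups. A pairing or batch by number can therefore not be excluded, and what the numbers stand for was not tested. The main fit took no pairing. As a replicate block the number gave 2 members higher and 8 lower in K4 and 2 and 25 in Ketamine (429 and 739, 1305 and 1886 of all genes). Precision is limited by 3 libraries per group and, for members under 1 FPKM, by few reads. The straight-line and without-member offsets, the replicate block with the offset as a change from the offset fit, and the leave-one-out fits with the offset were added after seeing the data.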

Other observations

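Of the 148 other chromatin genes tested, 4 were called higher and 4 lower in Ketamine against Control with the length offset. Over all genes 3.23% were so called higher and 4.37% lower. Tet1, which oxidises methylated cytosine, had CPM of 4.91, 5.93 and 5.37 in the Control libraries, 4.01, 4.31 and 3.34 in those of K4 and 3.30, 1.25 and 2.40 in those of Ketamine. Ketamine lay below both other groups, and its log2 fold change against Control was −1.21 (edgeR adjusted p = 0.0079) and −1.0 with the offset (adjusted p = 0.027). Phf10, a PBAF subunit of progenitor cells, fell by 0.31 in Ketamine from 27.8 ± 1.98 to 22.5 ± 0.886 CPM (edgeR adjusted p = 0.021; −0.39 and 0.014 with the offset). Actl6b, a SWI/SNF subunit of neurons, rose by 0.26 from 46.0 ± 0.929 to 54.9 ± 1.28 (edgeR adjusted p = 0.013), not called with the offset (0.16, adjusted p = 0.13). Ruvbl1, an ATPase of the INO80 and TIP60 complexes, rose by 0.38 in Ketamine (edgeR adjusted p = 0.0059; 0.29 and 0.037 with the offset), and Prmt2, an arginine methyltransferase, by 0.33 (adjusted p = 0.0074; 0.35 and 0.012). Tet1, Phf10, Ruvbl1 and Prmt2 were named after their values were seen.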
